A study of Mus musculus with 8 samples.

Results

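Embryoid bodies (EBs) of wild-type (WT) E14 mouse embryonic stem cells (ESCs) were compared between week 2 and week 3 of differentiation. EBs are free-floating aggregates in which ESCs, once leukaemia inhibitory factor is withdrawn, form derivatives of the germ layers side by side. The 2 libraries compared came from 1 unmodified line whose EBs were formed in hanging drops and then kept in suspension, and they differed in the week of collection. They belong to a series of 8 libraries, 1 for each of ESCs and EBs at weeks 1, 2 and 3 in WT E14 cells and in cells labelled Uhrf1 KO, a knockout of the gene for a protein that brings DNA methylation to newly copied DNA. The ESC libraries were undifferentiated cells kept in leukaemia inhibitory factor. The level of a gene is its RPKM, a read count divided by transcript length and by the depth of the library, which lets genes of different length be compared. A gene was taken when at least 1 of the 2 libraries gave it an RPKM of 1 or higher, which held for 12951 of the 20215 genes in the table. The highest level of the gene just past this minimum was 1.0001 and that of the gene just under it was 0.9999. Rose and fell stand below for a difference of at least 1.5-fold in RPKM + 1, the fold that the study applied between time points.

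No group held a second library, so no p-value was computed, and the spread between cultures is unknown. From the spacing of the lowest values, 1 read on a transcript of 1 kb gave an RPKM of 0.0323 at week 2 and 0.0284 at week 3, an estimated depth of about 31 M and 35.2 M reads. Ratios of single genes are given with a 95% exact binomial (Clopper-Pearson) interval that covers counting error only. The Uhrf1 transcript was at an RPKM of 78.8 in WT ESCs, 36.8 in WT EBs at week 2 and 41 at week 3. It was at 45.2, 34.6 and 31 in the corresponding libraries labelled KO, so the gene level did not mark those libraries as a knockout, and they are called labelled KO throughout. The genes of chromosome 11 stood apart from those of other chromosomes between the 2 WT libraries, as described below, and a member on chromosome 11 is named as such where it is described.

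Of the 12951 genes, 1707 (13.2%) were higher at week 3, 1307 (10.1%) were lower and 9937 (76.7%) stayed within 1.5-fold. At 2-fold, 875 genes (6.76%) were higher and 553 (4.27%) lower, and at 4-fold 223 and 73. The median log2 difference over all 12951 genes was 0.01, with quartiles of -0.25 and 0.30. An RPKM of 1 was reached at week 3 alone by 967 genes and at week 2 alone by 366. Of the genes that rose, 1036 (60.7%) had their highest WT level at week 3 and 600 (35.1%) in ESCs, and 71 had it at week 1. Of the genes that fell, 1023 (78.3%) had their highest WT level at week 2, 220 at week 1 and 64 in ESCs. Over all genes compared, 21.0% had their highest WT level at week 3, 27.3% at week 2 and 30.1% in ESCs. A gene that rose cannot peak at week 2 and one that fell cannot peak at week 3. The shares of risers and fallers are therefore not on the same base as those of all genes.

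**Figure D1:**
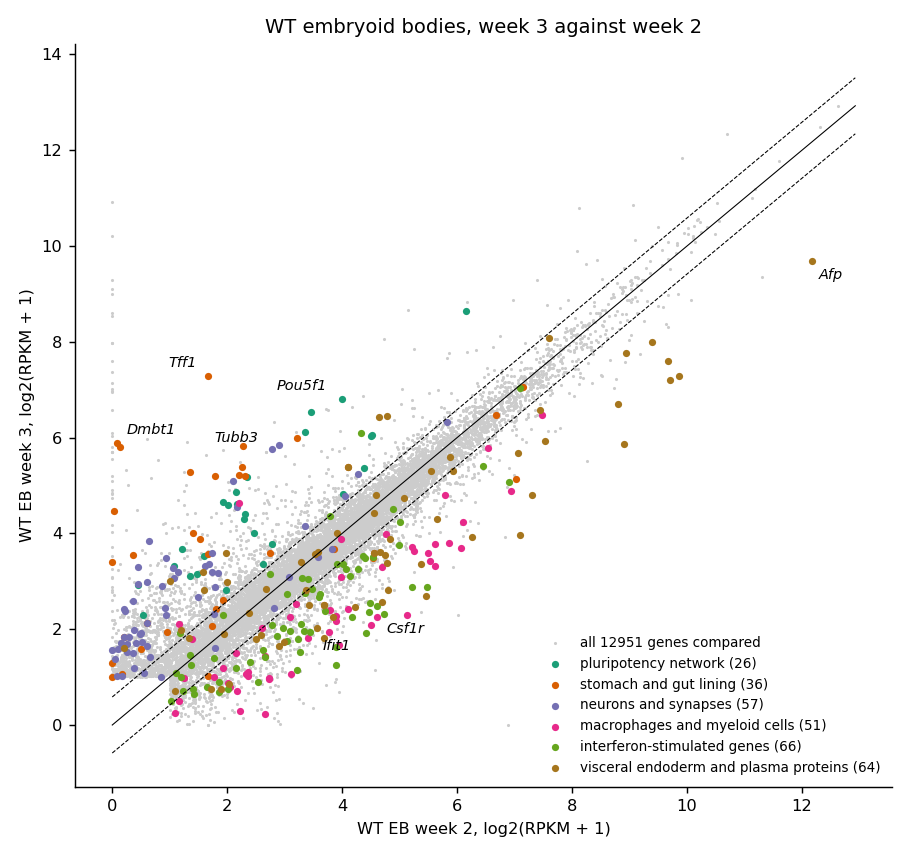
Level of each of the 12951 genes in WT EBs at week 2 (x axis) and week 3 (y axis), log2(RPKM + 1), 1 library each. The solid line marks equal levels and the dashed lines 1.5-fold, and coloured points are the members of 6 gene lists. Pluripotency, stomach and neuron genes lie mostly above the upper dashed line, and macrophage, interferon and plasma protein genes mostly below the lower one.

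The steepest rises on the log2 scale were mostly those of small RNAs. Of the 25 genes highest by log2 difference among those that reached an RPKM of 5, 22 were small nucleolar RNAs, Cajal body RNAs or miRNA precursors, transcripts shorter than the fragments that such a library holds. Of 101 small RNAs compared, 76 rose and 7 fell, and 39 of the 76 were listed at 0 at week 2. Snord49a was listed at 0 at week 2 and at 1923 at week 3, and Scarna2 was at 744 at week 2 and listed at 0 at week 3. An exact 0 can be a failed estimate in such a table (Eef1a1, an elongation factor that every cell uses, was listed at 0 in WT ESCs). No fold is given against a 0. Coding genes alone gave 1573 higher and 1284 lower of 12557. The accounts below follow coding genes by the tissue or process they mark.

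Genes of the stem cell network rose together. Pluripotency rests on a small set of transcription factors, of which Pou5f1 (Oct4), Sox2 and Nanog are the core. Esrrb, Klf2 and Nr0b1 stand around them, and Zfp42, Dppa5a and Tdgf1 are among their known targets. Nanog had no value among the genes listed here. All 26 listed genes detected rose, where 13.2% of all genes compared did, with a median log2 difference of 2.05 against 0.01 over all genes. Pou5f1 (chr17:35642982-35647721 in mm9) was at an RPKM of 705 in ESCs, 9.42 at week 1, 14.9 at week 2 and 111 at week 3. Its week 3 level was 7.47-fold the week 2 level (95% interval 6.87 to 8.12) and 15.8% of that in ESCs. Zfp42 (Rex1), a zinc finger gene used as a mark of undifferentiated cells, was at 134, 5.98, 9.95 and 91.8 in the same 4 libraries and returned to 68.3% of the ESC level. Dppa5a, an RNA-binding protein of pluripotent cells, was at 70.2 at week 2 and 397 at week 3 after 1560.2 in ESCs. The factor Esrrb, an orphan nuclear receptor, was at 3.44 and 28, and Tdgf1, a co-receptor for Nodal, at 9.26 and 68.7. Sox2, shared by stem cells and neural progenitors, was at 21.9 and 65.7. Of the 26 genes, 21 were higher in ESCs than at week 3. In bulk RNA, a larger share of undifferentiated cells and more of their transcripts per cell cannot be told apart, and the same holds for every cell type below. In the libraries labelled KO, where 6.12% of all genes compared rose and 6.77% fell, 17 of the same genes rose between the same weeks and 0 fell, with a median of 0.73. Pou5f1 was at 62.9 there at week 2 and 104 at week 3, so the 2 genotypes lay apart at week 2 and close to each other at week 3.

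Germline genes moved in the same direction. They include genes of meiosis and of germ cell RNA control, many of them silent in most body tissues and detectable in ESCs. Of 25 detected, 18 rose and 2 fell, with a median log2 difference of 1.28, and 24 were at an RPKM of 1 or more in ESCs. Stra8, which retinoic acid induces before meiosis, was at 2.04 in ESCs, 0.386 at week 1, 1.46 at week 2 and 20.2 at week 3, and thus stood 13.9-fold higher at week 3 than at week 2 (11.1 to 17.7) and above its level in ESCs. Dazl, an RNA-binding protein of germ cells, was at 1.37 and 15.9 (11.6-fold, 9.68 to 14). Dppa3 (Stella), a maternal factor that protects DNA methylation, was at 0.356 and 6.56. The exceptions were the homeobox genes Rhox6, from 26.7 to 6.35, and Rhox9, from 22.7 to 5.22, which are also transcribed in placenta. The libraries labelled KO did not move in this way, with 1 of the 25 genes higher and 3 lower. Their levels were already up at week 2, at 19.8 for Dazl and 17 for Stra8, against 21.8 and 17.7 at week 3.

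Neuronal genes gave the largest number of rising members of any list. Neural progenitors carry Sox and Zic factors and give rise to neurons, which build axons from neuron-specific tubulin, stathmins and neurofilaments. Of 57 neuron and synapse genes detected, 48 rose and 0 fell, with a median log2 difference of 1.42 against 0.01 over all genes. Tubb3, a neuron-specific tubulin, was at 5.88 at week 2 and 53.4 at week 3 (9.08-fold, 8.13 to 10.2). Dcx, a microtubule protein of migrating young neurons, was at 0.923 and 10.1 (11-fold, 9.66 to 12.5), having been at 0.0024 in ESCs and 0.097 at week 1. Ina, an intermediate filament of axons, was at 0.56 and 13.4, and the tau gene Mapt on chromosome 11 at 0.516 and 6.92. Stmn2, which regulates microtubules in growing axons, was at 6.43 and 56.4, and Nsg2 on chromosome 11, a vesicle protein of neurons, at 3.31 and 33.4. Some of these markers are not specific to neurons in this system, since Stmn2 was at 144 and Tubb3 at 35.9 in ESCs, and 9 of the 57 genes were higher in ESCs than at week 3. Dcx, Nhlh2 and Scg3 were under an RPKM of 1 in ESCs and at 10.1, 6.69 and 8.69 at week 3. Levels of the genes that did not pass 1.5-fold include Ncam1, a cell adhesion gene shared with other tissues, at 11 and 10.3, and Isl1, a factor of motor neurons and heart progenitors, at 6.0 and 4.42. Over the same weeks 8 of the 57 rose and 2 fell in the libraries labelled KO, where Dcx was at 1.59 and 1.92.

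Progenitor genes also rose, in both genotypes. Of 27 detected, 18 rose and 2 fell (median log2 difference 0.83), and in the libraries labelled KO 19 rose and 0 fell. Sox1, an early factor of the neural plate, was at 0.242 at week 2 and 5.05 at week 3. Zic1, a factor of the dorsal neural tube, was at 0.732 and 9.42 (12.9-fold, 10.8 to 15.5). Fabp7, a lipid carrier of radial glia, was the most abundant member and was at 57 and 216. Among those that fell was Dbx1, a factor of the ventral neural tube, at 1.14 and 0.286. Nes, an intermediate filament of progenitors that the study used as an example gene, was at 17.9 and 20.7, within 1.5-fold. Of 15 glial and eye genes, 7 rose and 2 fell. Gfap on chromosome 11, the intermediate filament of astrocytes, was listed at 0 at week 2 and at 8.56 at week 3, and Aqp4, the water channel of astrocytes, was at 0.288 and 3.47. The neural crest list had no common direction, with 6 higher and 4 lower of 14. Ednrb, an endothelin receptor of migrating crest cells, was at 42.2 and 19.2.

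**Figure D2:**
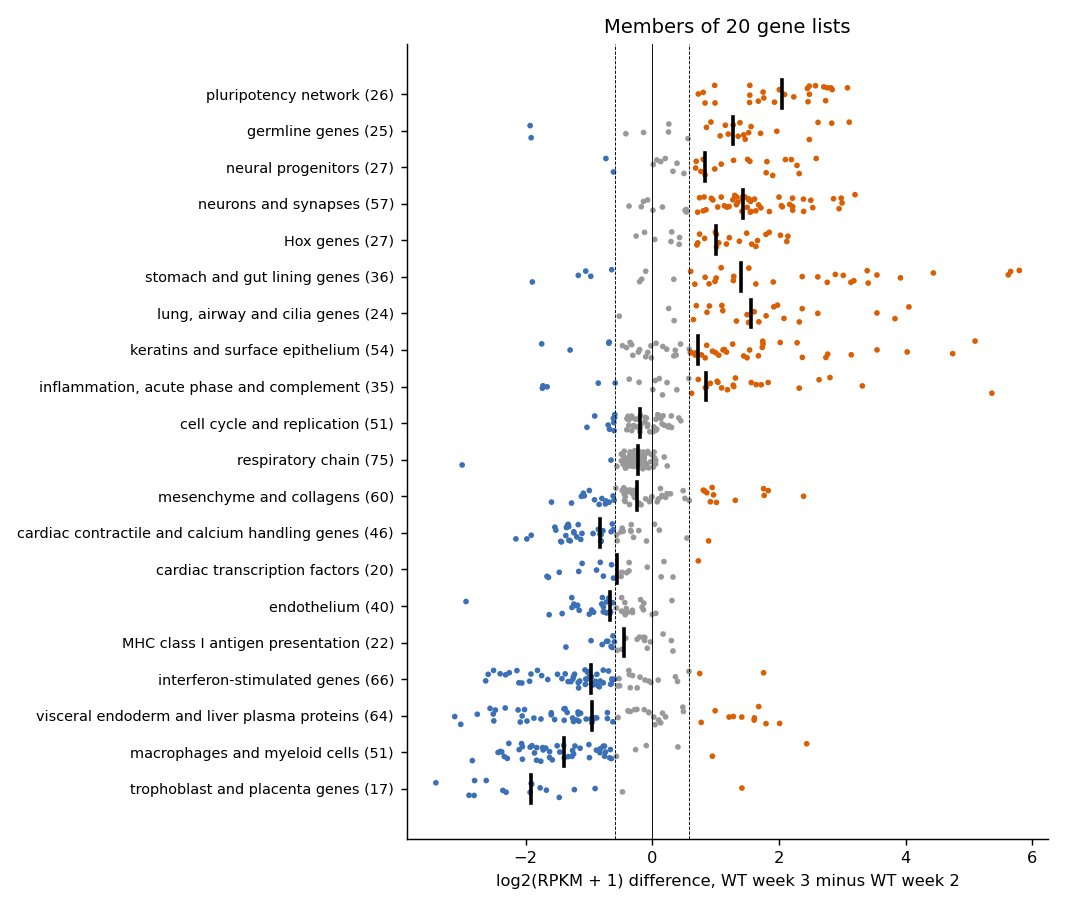
Log2(RPKM + 1) difference of week 3 minus week 2 in WT EBs (x axis) for each detected member of 20 gene lists, whose member counts are in parentheses. Points are single genes, orange past 1.5-fold upward, blue past 1.5-fold downward and grey between, and black bars are list medians. Medians run from 2.05 for the pluripotency network to -1.91 for trophoblast genes.

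Hox genes, which give cells their position along the head-to-tail axis and lie in 4 clusters in the order of that axis, rose at the front end of the clusters and in part at the rear. Of 27 detected, 20 rose and 0 fell, with a median log2 difference of 1.01. All 13 detected genes of paralog groups 1 to 5 rose (median 1.63), against 5 of 8 in groups 6 to 9 (median 0.71) and 2 of 6 in groups 10 to 13 (median 0.43), a division made after the values were seen. Hoxa5 was at 0.655 at week 2 and 5.73 at week 3, Hoxa2 at 0.751 and 5.29, and Hoxc4 at 0.126 and 3.91. Hoxb3 on chromosome 11 was at 1.01 and 7.88 (7.77-fold, 5.96 to 10.3). In groups 10 to 13, Hoxa10 rose from 1.44 to 4.49 and Hoxd13 from 1.89 to 4.75, while Hoxc10 was at 2.22 and 1.95 and Hoxd10 at 0.785 and 1.39. The Hoxb cluster lies on chromosome 11, and without its 9 detected genes the list median was 1.00. Levels were low throughout, with a summed RPKM over the listed genes of 28.5 at week 2 and 88.8 at week 3. Of the same genes in the libraries labelled KO, 2 of the 13 front genes rose, 5 of the 6 rear genes fell, and the whole list had a median of -0.04. Hoxd13 was at 15.6 and 2.99 there.

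Genes of the stomach and gut lining held the largest log2(RPKM + 1) differences among coding genes that reached an RPKM of 5, 5.80 for Dmbt1, 5.66 for Reg1 and 5.62 for Tff1. The lining of the stomach secretes mucins, trefoil peptides that stabilise the mucus, gastrokines and digestive enzymes. Of 36 genes detected, 27 rose and 5 fell, with a median log2 difference of 1.41. Tff1 (chr17:31298341-31301998), a trefoil peptide of the gastric surface, was at 0.0494 in ESCs, 0.317 at week 1, 2.18 at week 2 and 156 at week 3 (71.4-fold, 51 to 106). Its neighbour Tff2 (chr17:31277994-31281227) was listed at 0 at week 2 and at 9.51 at week 3. Dmbt1, a scavenger glycoprotein of mucosal surfaces, was at 0.0651 and 58.2, the first from about 13 reads, and Reg1, a secreted lectin-like protein of the regenerating gut and pancreas, at 0.0994 and 54.6, the first from about 2 reads. Anxa10, an annexin of the gastric lining, was at 0.0178, from about 1 read, and 21.1. The gastrokines Gkn1 (chr6:87295647-87300917) and Gkn2 (chr6:87323359-87329488) were at 2.46 and 8.33 at week 2 and at 35.8 and 62.4 at week 3. Muc1, a mucin of the cell surface, was at 3.82 and 55.3, Agr2, a chaperone of mucin folding, at 1.57 and 37.8, and the aspartic protease Ctse at 3.75 and 40.8. Intestinal genes were found in both directions. Among those that rose, Fabp1, a fatty acid carrier of gut and liver, was at 16.2 and 40.8, Cdh17, a cadherin of intestinal epithelium, at 2.16 and 10.9, and Olfm4, a marker of crypt cells, at 0.528 and 3.4. Among those that fell, Tff3, the trefoil peptide of intestinal goblet cells, was at 129 and 33.9, the related carrier Fabp2 at 11.8 and 4.71, the brush border protein Vil1 at 22.1 and 10.1, and the intestinal mucin Muc13 at 22.6 and 11. Cdx2, the factor of intestinal identity, was at 7.03 and 1.14, a 6.15-fold fall (4.91 to 7.78). General epithelial genes stayed within 1.5-fold, with Epcam at 102 and 88.3 and Cdh1 (E-cadherin) at 141 and 131.

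As a list, these genes moved differently in the libraries labelled KO over the same weeks. Of the 36 genes, 8 rose and 17 fell there (median -0.41). Those that rose included Dmbt1, at 0.703 and 4.79, Reg1, at 0.576 and 4.25, and Muc1, at 4.79 and 29.6. Among those that fell, Tff1 was at 10.2 and 2.12, Agr2 at 60.0 and 11.7, and Gkn1 at 60.1 and 19.5. Lgals4, a lectin of gut epithelium, fell there from 85.3 to 4.94, against 3.62 and 36.3 in WT. Agr2, Gkn1 and Lgals4 were thus higher at week 2 in the library labelled KO than at week 3 in WT. Tff1, at 10.2 in that library, stayed far under the 156 of WT week 3. With 1 library each, a difference between genotypes and a difference between cultures cannot be told apart.

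**Figure D3:**
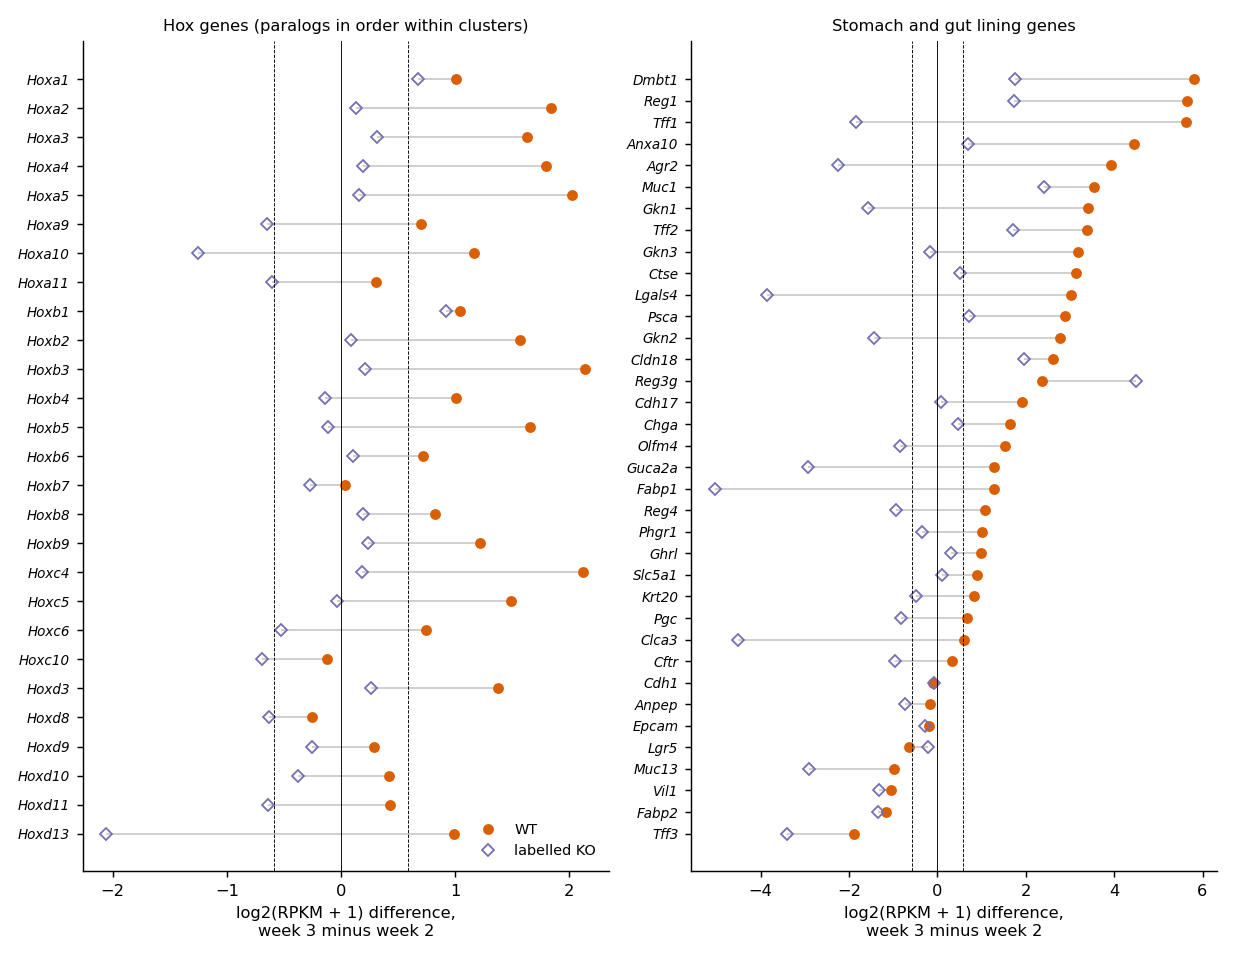
Log2(RPKM + 1) difference of week 3 minus week 2 (x axis) for each detected Hox gene (left) and each detected stomach and gut lining gene (right), in WT (filled circles) and in the libraries labelled KO (open diamonds), 1 library per week and genotype. Dashed lines mark 1.5-fold. Hoxd13 is at 0.99 in WT and -2.06 in the libraries labelled KO, and Tff1 at 5.62 and -1.84.

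Genes of the airway list rose in both genotypes, and which cells expressed them was not tested. Airways are lined by secretory cells and by cells that bear motile cilia, whose beat is driven by dynein arms and whose formation is controlled by Foxj1. Of 24 listed genes detected, 21 rose and 0 fell (median 1.56), and in the libraries labelled KO 22 rose and 0 fell (median 1.3). Foxj1 on chromosome 11 was at 2.61 at week 2 and 8.07 at week 3, and all 11 detected cilia genes of the list rose, among them the ciliary filament gene Tekt1 on chromosome 11 from 0.352 to 3.7 and the radial spoke gene Rsph1 from 0.791 to 5.77. Cyp2f2, a cytochrome of club cells, was at 2.78 and 52.8 (19-fold, 16.2 to 22.4), and the club cell secretoglobin Scgb3a2 at 1.18 and 7.6. The lung surfactant protein Sftpd was at 0.401 and 6.0. In those libraries, Cyp2f2 was at 18.6 and 146 and Scgb3a2 at 17.1 and 376. Abca3, a lipid transporter of alveolar cells, was at 17.1 and 11.6 in WT and Nkx2-1, a factor of lung and thyroid, at 1.57 and 2.07, both within 1.5-fold.

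Surface epithelium and acute phase genes accompanied them. Of 54 keratin and surface epithelium genes, 31 rose and 4 fell (median 0.73), and of 17 detected keratins 14 rose and 0 fell. Krt13 on chromosome 11, a keratin of stratified mucosa, was at 0.734 and 45.5 (61.9-fold, 44.6 to 86.9), and its partner Krt4 on chromosome 15 at 1.21 and 24.8. The surface proteins Ly6d and Ly6a were at 0.173 and 1.38 at week 2 and at 39.2 and 37.8 at week 3, and Msln, a marker of mesothelium, at 0.426 and 11.6. Trp63, the factor of basal epithelial cells, went the other way, from 7.46 to 1.52. The basal keratins that such cells make rose, with Krt14 on chromosome 11 at 3.84 and 15.1 and Krt5 at 8.03 and 13.4. Of 35 inflammation, acute phase and complement genes, 21 rose and 5 fell (median 0.85), with 20 higher and 5 lower in the libraries labelled KO. Lcn2, which binds bacterial siderophores, was at 0.519 and 61.6 (119-fold, 78.6 to 190.5), haptoglobin (Hp) at 0.837 and 17.3, serum amyloid Saa3 at 4.81 and 35.1, and Serpina3n, a protease inhibitor of the acute phase, at 12.6 and 93.8. Ltf, which encodes the iron-binding lactoferrin of secretions, was at 0.354 and 21.5. The complement genes C2, Cfb and C9 fell instead, with Cfb at 26.9 and 7.43. Clu, which encodes the secreted chaperone clusterin, was at 276 and 1766 and had the largest rise in RPKM of any coding gene.

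Plasma protein genes of the yolk sac endoderm and liver carried the largest falls in RPKM. Visceral endoderm, the outer layer of an EB, secretes the same carriers and apolipoproteins as fetal liver, with alpha-fetoprotein (Afp) foremost. Of 64 genes detected, 38 fell and 10 rose (median -0.95), and their summed RPKM was 11102 at week 2 and 3140.4 at week 3. Afp was at 0.0168 in ESCs, 147 at week 1, 4602 at week 2 and 824 at week 3, a 5.58-fold fall (5.54 to 5.63). The apolipoproteins Apoa1, from 834 to 145, and Apoa2, from 475 to 57.4, fell with it. Retinol carrier Rbp4 was at 926 and 156, transferrin (Trf) at 809 and 194, and transthyretin (Ttr), the thyroid hormone carrier, at 442 and 103. Cubn, an endocytic receptor of this layer, and Apob, the core protein of secreted lipoproteins, were at 24.8 and 75.4 at week 2 and 4.94 and 14.3 at week 3.

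Another group of liver genes rose or held its level. Albumin (Alb, chr5:90889915-90905629), the neighbour of Afp (chr5:90919740-90937933), was at 192 and 269, within 1.5-fold. Ahsg (fetuin) was at 23.9 and 85.6 (3.57-fold, 3.34 to 3.82), the vitamin D carrier Gc at 26.3 and 86.6, and the inhibitor chain Itih4 at 2.96 and 11.1. These came late, since Alb, Ahsg and Itih4 were at 0.0945, 0.247 and 0.0068 at week 1, where Afp was at 147, Apoa1 at 186 and Ttr at 366. In the other genotype, 45 of the 64 fell and 1 rose (median -1.37), and Afp was at 1096 and 36, Alb at 255 and 13, and Ahsg at 30.8 and 5.47. The promoter of Afp is shown for its match to the site of HNF1 factors, which drive liver genes, searched as GTTAAT, any base and ATT on both strands in the RefSeq window from 250 bases before to 50 after each start. These are the 150 bases before the start, 5′ to 3′ on the gene's strand with the match in capitals.
Afp, chr5:90919590-90919739 (plus strand): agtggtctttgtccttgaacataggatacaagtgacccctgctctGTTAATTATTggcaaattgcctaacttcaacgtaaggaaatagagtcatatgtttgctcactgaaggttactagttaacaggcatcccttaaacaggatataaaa
This match was found in 127 of 27025 genes with such a window (0.470%) and in 5 of the 59 listed genes that have one. Of the 52 of these that were compared, 3 held it, namely Gc, which rose, and Afp and Npc1l1, which fell.

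Placental genes had the lowest median of the lists. Trophoblast, the lineage of the placenta, expresses placental cathepsins, hormones of the prolactin family and steroid enzymes. Of 17 genes detected, 15 fell and 1 rose, with a median log2 difference of -1.91. Ctsj, a placental cathepsin, was at 22.7 at week 2 and 1.21 at week 3 (18.7-fold lower, 14.3 to 25.3), after 0.0362 at week 1. Tpbpa, a marker of the spongiotrophoblast, was at 6.32 and 0.188, and Cyp11a1, which starts steroid synthesis, at 23 and 2.41. All 8 prolactin family genes detected were lower (median -2.74), among them Prl2c5 at 10.2 and 0.281. Near-identical copies in this family, such as Prl2c2, Prl2c3 and Prl2c5, can share reads, so levels of single copies are uncertain. Ctsj (chr13:61101639-61107277) and Prl2c5 (chr13:13274982-13284190) lie far apart on chromosome 13. Eomes, a factor of trophoblast stem cells and of mesoderm and neurons, was the gene that rose, from 0.336 to 2.56. No listed member was highest in ESCs, and 13 of the 17 were highest at week 2.

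Imprinted genes, expressed from 1 parental copy, moved in both directions, with 8 higher and 16 lower of 44. Of all genes compared, 13.2% were higher and 10.1% lower. Both shares of the imprinted list were above these, and the share that fell stood further above. The fetal growth factor Igf2 was at 2517 and 653 (3.86-fold lower, 3.83 to 3.88), and the growth inhibitor Cdkn1c at 81.1 and 17.6. H19, the noncoding RNA next to Igf2, was at 345 and 834, and Meg3, the noncoding RNA of the Dlk1 domain, at 15.3 and 53.9. Dlk1 itself was at 66.1 and 25.1. In both pairs of neighbours the noncoding RNA rose and the protein-coding gene fell. Grb10 on chromosome 11, an inhibitor of insulin signalling, was at 7.04 and 22.7.

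Macrophage genes fell as a group. Macrophages arise in the yolk sac, depend on the receptor Csf1r and carry Fc receptors, scavenger receptors and complement C1q. Of 51 genes detected, 45 fell and 2 rose (median -1.40), and 44 had their highest WT level at week 2. Csf1r was at 0.0643 in ESCs, 1.73 at week 1, 23.3 at week 2 and 3.81 at week 3 (6.13-fold lower, 5.62 to 6.68). The mannose receptor Mrc1 was at 34.1 and 3.89, Fcer1g, the signalling chain of Fc receptors, at 66.3 and 11.9, Cx3cr1, the receptor of fractalkine, at 14.4 and 2.19, and C1qa at 37 and 11.3. The pan-leukocyte gene Ptprc was at 3.12 and 0.74. Cd14, a co-receptor for endotoxin that other cell types also carry, rose from 3.59 to 23.8, and Slamf9 from 1.22 to 3.29. Where KO was the label, 28 of the 51 fell and 4 rose, and Csf1r was at 6.84 and 2.04.

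Interferon-stimulated genes, which cells switch on when interferon or foreign nucleic acid is sensed, fell over the same week. Of 66 genes detected, 48 fell and 2 rose (median -0.96), and 55 were highest at week 2 among the 4 WT libraries. Ifit1, which binds foreign RNA caps, was at 0.11 in ESCs, 0.333 at week 1, 20.4 at week 2 and 2.76 at week 3 (7.39-fold lower, 6.49 to 8.47). Isg15, a ubiquitin-like modifier, was at 43.7 and 6.41, and Rsad2 (viperin), an antiviral enzyme, at 13.8 and 1.39 (9.95-fold lower, 8.6 to 11.5). Irf7, the factor that amplifies the response, was at 8.65 and 1.87, and Bst2 (tetherin) at 118 and 32.9. The 2 that rose were Ifitm1, which was also at 343 in ESCs, from 19.2 to 67.2, and Ifi203, from 1.27 to 2.81. Ifitm3 was at 136 and 131 and Irf1 on chromosome 11 at 12.8 and 19.6, both within 1.5-fold.

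The promoters of Ifit1, Isg15 and Rsad2 are shown because these genes had the largest falls of the list and because the binding site of the interferon-activated complex can be read in them. It was searched as GAAA, any 2 bases and GAAA on both strands in the same RefSeq windows, and the 150 bases before each start are printed 5′ to 3′ on the gene's strand, with matches in capitals.
Ifit1, chr19:34715229-34715378 (plus strand): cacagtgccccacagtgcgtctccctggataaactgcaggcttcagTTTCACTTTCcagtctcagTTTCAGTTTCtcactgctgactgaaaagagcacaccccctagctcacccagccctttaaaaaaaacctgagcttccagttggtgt
Isg15, chr4:155574928-155575077 (minus strand): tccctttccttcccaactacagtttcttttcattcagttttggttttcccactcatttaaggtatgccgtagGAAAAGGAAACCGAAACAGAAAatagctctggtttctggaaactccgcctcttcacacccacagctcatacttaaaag
Rsad2, chr12:27141318-27141467 (minus strand): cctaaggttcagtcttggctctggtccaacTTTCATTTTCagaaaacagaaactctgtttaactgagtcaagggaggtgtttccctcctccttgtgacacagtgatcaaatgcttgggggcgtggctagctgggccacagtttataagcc
Ifit1 held 2 matches, Isg15 held 3 that overlap and Rsad2 held 1. A match was found in 27 of the 53 listed genes with a window (50.9%), against 1079 of all 27025 genes (3.99%). Among the 48 listed genes that were compared, 18 of the 35 that fell held a match and so did 6 of the 13 that did not fall. Such a match is a run of letters and not a measured binding site.

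The libraries labelled KO held higher levels of these genes at both weeks, in 62 of the 66 at week 2 and 64 at week 3. Of the 66, 15 fell and 2 rose there (median -0.33). Ifit1 was at 38.8 at week 2 and 51.4 at week 3, Isg15 at 109.9 and 84.5, and Ifit3, a partner of Ifit1, at 41.8 and 75.3 against 25.5 and 4.01 in WT. Class I genes of antigen presentation, which interferon also raises, fell only in part in WT, with 9 lower and 0 higher of 22. Their median of -0.45 was within 1.5-fold, and so were Psmb8, at 5.79 and 5.65, and Psmb10, at 6.59 and 8.51. B2m, the invariant chain of class I molecules, was at 818 and 317 in WT and at 541 and 431 in the libraries labelled KO. Macrophages themselves express many interferon-stimulated genes, and the part of the macrophage fall in the interferon fall was not tested.

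Genes of beating heart muscle fell by smaller ratios. Heart muscle contracts through myosin and troponin of the sarcomere and is specified by Nkx2-5, Tbx5, Gata4 and Hand factors. Of 46 contractile and calcium handling genes detected, 31 fell and 1 rose (median -0.82), and of 20 cardiac transcription factors 10 fell and 1 rose (median -0.55). Actc1, the cardiac actin, was at 506 at week 1, 486 at week 2 and 189 at week 3 (2.57-fold lower than at week 2, 2.51 to 2.63). Myl7 on chromosome 11, the atrial light chain, was at 436 and 149, Myh6, the alpha myosin heavy chain, at 81.8 and 37.3, and the Z-disc protein Csrp3 at 67.4 and 14.4. Myl2, the ventricular light chain, stayed within 1.5-fold at 322 and 254, and Sln, which restrains the calcium pump of the atrium, was the gene that rose, from 4.0 to 8.26. Among the factors, Tbx5 was at 4.48 and 1.54, Nkx2-5 at 1.66 and 0.443, and Hand1 on chromosome 11 at 52.9 at week 1, 7.08 at week 2 and 1.91 at week 3. Tbx3, which marks the conduction system among other tissues, rose from 5.18 to 9.22. At week 2, 42 of the 46 contractile genes were lower in the library labelled KO than in WT, and from there 18 fell and 2 rose (median -0.38), with Actc1 at 223 and 114.

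Vessels and smooth muscle shared this direction. Of 40 endothelial genes, 23 fell and 0 rose (median -0.67), and none had its highest WT level at week 3. Cdh5, the cadherin of endothelial junctions, was at 78.2 at week 1, 50.6 at week 2 and 20.4 at week 3, and Kdr, the main receptor of vascular endothelial growth factor, at 16.7 and 8.3. Lyve1, a hyaluronan receptor shared by lymphatic vessels and some macrophages, fell from 13.9 to 0.933 (14.9-fold, 11.9 to 18.7), and Stab2, a scavenger receptor of sinusoids, from 1.99 to 0.114 (17.5-fold, 12.3 to 25.7). Pecam1 on chromosome 11 was at 36.2 and 27.4 and Cd34 at 40.9 and 42.5, both within 1.5-fold. Smooth muscle actin Acta2 was at 118 and 40.3, and 6 of 18 smooth muscle genes fell and 1 rose. The gene that rose was Myh11, the smooth muscle myosin, from 1.66 to 4.42, against 4.64 and 1.16 in the libraries labelled KO. Embryonic globins, the products of primitive red cells, had been at 8678 for Hbb-bh1 and 5453 for Hba-x at week 1. Hbb-bh1 was at 6.99 at week 2 and 48.4 at week 3, and Hba-x on chromosome 11 at 3.05 and 32.7 (10.7-fold, 8.45 to 13.7), while Gata1, the red cell factor, was at 0.48 and 0.373, under an RPKM of 1 in both.

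**Figure D4:**
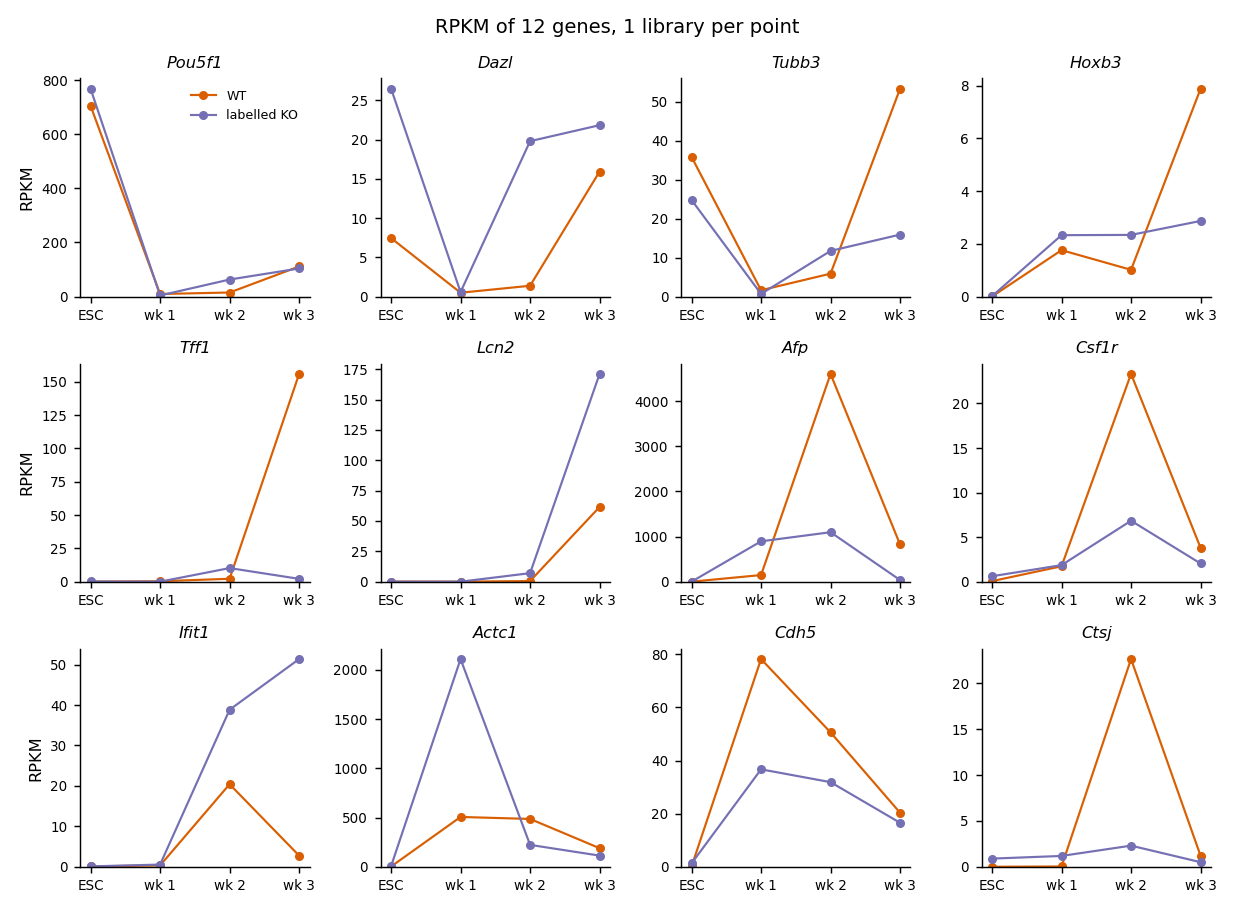
RPKM (y axis, from 0) of 12 genes in ESCs and in EBs at weeks 1, 2 and 3, for WT and for the libraries labelled KO, 1 library per point. In WT, Tubb3, Hoxb3, Tff1 and Lcn2 are highest at week 3, Afp, Csf1r, Ifit1 and Ctsj at week 2, Cdh5 and Actc1 at week 1, and Pou5f1 in ESCs.

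Connective tissue genes had no common direction. Of 60 mesenchyme and collagen genes, 12 rose and 14 fell (median -0.24), and of 31 collagen chains 5 rose and 6 fell. The main fibrillar collagens stayed within 1.5-fold, with Col1a1 on chromosome 11 at 95.5 and 112 and Col3a1 at 369 and 319, and so did the proteoglycan decorin (Dcn) at 219 and 231. Postn, a matrix protein of growing valves and bone surfaces, was at 220.1 and 72.3, and elastin (Eln) at 6.66 and 24.9. Thy1, a surface protein of fibroblasts and neurons, was at 4.77 and 29.2.

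Factors and markers of other tissues divided within their lists. Of 25 endoderm transcription factors, 8 rose and 7 fell. Those that fell included factors of liver and visceral endoderm, with Foxa1 at 22.9 and 8.59 and Hnf4a at 21.6 and 13.2, and those that rose included factors of mucosal epithelium, with Ehf at 9.75 and 27.8 and Elf3 at 7.77 and 28.4. Of 17 pancreas and kidney genes, 7 rose and 4 fell, and the hormone somatostatin (Sst) was at 0.0711 and 8.46. Of 14 skeletal muscle genes, 3 rose, namely Mylpf, the fast light chain, from 3.42 to 29.4, Pax3, a factor of muscle and crest progenitors, from 0.354 to 4.81, and Myog, which commits muscle cells, from 0.286 to 1.17. Cartilage and bone genes numbered 16, of which 5 rose and 2 fell, and Dmp1, a bone matrix protein, was at 0.802 and 5.96. Of 31 parietal endoderm and basement membrane genes 6 rose and 8 fell, with Pga5, a pepsinogen, at 17.1 and 98.9 in WT and 73.9 and 35.8 in the libraries labelled KO. The lipoprotein lipase gene Lpl was at 93.3 and 38.7, and 3 of 13 adipocyte genes fell and 0 rose.

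Lists of genes that most cells use had medians within 1.5-fold. Of 51 cell cycle and replication genes, 9 fell and 0 rose (median -0.19), where 10.1% of all genes compared fell and 13.2% rose. The share that fell was thus above that of all genes. Mki67, a protein of cycling cells, was at 39.2 and 23.8 and cyclin A2 (Ccna2) at 86.4 and 56. The replication licensing gene Mcm5 was at 42.4 and 52.6. Of 75 respiratory chain genes, 2 fell and 0 rose, of 12 genes of Setd1a and its COMPASS complex, which methylates histone H3, 0 fell and 0 rose, and of 17 reference genes 1 fell, namely B2m. Of 27 p53 targets and cell cycle inhibitors 6 rose, a larger share than over all genes, and 2 fell. Of 36 hypoxia and glycolysis genes 5 rose and 5 fell. Of 34 genes of the unfolded protein and amino acid response 4 rose and 3 fell. The shares of these last lists were not far from those of all genes (13.2% higher and 10.1% lower). Of 30 genes of DNA methylation and heterochromatin 5 rose and 0 fell, a share of risers near that of all genes. These genes included the de novo methyltransferase Dnmt3b, from 5.46 to 19.1, its cofactor Dnmt3l, from 2.79 to 24.2, and the demethylase Tet1, from 3.3 to 7.94, which were at 55.9, 163 and 28.6 in ESCs. Of 30 Polycomb genes 6 rose and 2 fell, and Cbx7, the chromobox subunit of stem cells, had the largest rise, from 2.4 to 13.1 after 36.7 in ESCs.

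Signalling genes rose and fell side by side. Of 47 genes of Fgf, hedgehog, Notch and retinoid signalling, 12 rose and 6 fell, where 13.2% of all genes compared rose and 10.1% fell. Crabp1, a cytoplasmic carrier of retinoic acid, was at 12.1 and 95.2 (7.86-fold, 6.98 to 8.89), and Cyp26b1, which breaks retinoic acid down, at 0.568 and 7.88. Fgf15, a growth factor of embryonic brain and gut, was at 2.51 and 20.6, and Fgf4, made by pluripotent cells, at 1.88 and 10.3. The hedgehog ligand Shh was at 18.8 and 6.16 and its antagonist Hhip at 10.5 and 2.12. In the Wnt list 10 rose and 9 fell of 36, and in the TGF-beta and BMP list 6 rose and 9 fell of 37. Bmp4, a ligand of ventral mesoderm, was at 21.6 and 11.6. The share that rose was above that of all genes in the Fgf and Wnt lists. The share that fell was above that of all genes in the Wnt and TGF-beta lists. Of 21 immediate early and heat shock genes, which respond fast to stress or growth factors, 7 rose, where 13.2% of all genes did, and 0 fell, with the chaperone gene Hsp90aa1 at 243 and 465 and Fos at 4.34 and 8.13.

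The genes of chromosome 11 differed from those of the other chromosomes. Of 1059 genes compared on it, 246 (23.2%) rose and 63 (5.95%) fell, while over the other chromosomes 12.1% rose and 10.5% fell, and among the remaining autosomes and X the share that rose ran from 8.78% on chromosome 19 to 16.5% on chromosome 1. Among 6113 genes that reached an RPKM of 5 in each of the 8 libraries, the median log2 difference was 0.26 on chromosome 11 (578 genes, quartiles 0.08 and 0.46) and -0.04 on all other chromosomes (5479 genes, quartiles -0.22 and 0.16), and 81.3% of the former and 44.7% of the latter were above 0. Chromosome 1 came next at 0.09 and X was lowest at -0.13. The shift was seen in each part of the chromosome that could be measured. In its 13 windows of 10 megabases with at least 10 such genes the medians ran from 0.19 to 0.33, and 4 of 198 windows on other chromosomes reached 0.19. Npm1, a nucleolar chaperone on chromosome 11, was among the 12 largest gains in RPKM, at 720.0 and 1345 after 1414 at week 1.

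Set against WT ESCs, a library that these comparisons share, the chromosome 11 median was -0.05 at week 1, -0.48 at week 2 and -0.20 at week 3, and that of the other chromosomes 0.06, 0.01 and -0.02. The week 2 library was thus the one in which chromosome 11 genes were lowest. In the libraries labelled KO the change from week 2 to week 3 was 0.10 on chromosome 11 and -0.02 on the others, with chromosome 8 lowest at -0.15. The number of copies of the chromosome in these cultures was not tested. A shift of this size is under 1.5-fold by itself. Without chromosome 11, 1461 genes rose and 1244 fell of 11892, the neuron list median was 1.42, that of the keratin list 0.61 and that of the interferon list -0.99.

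**Figure D5:**
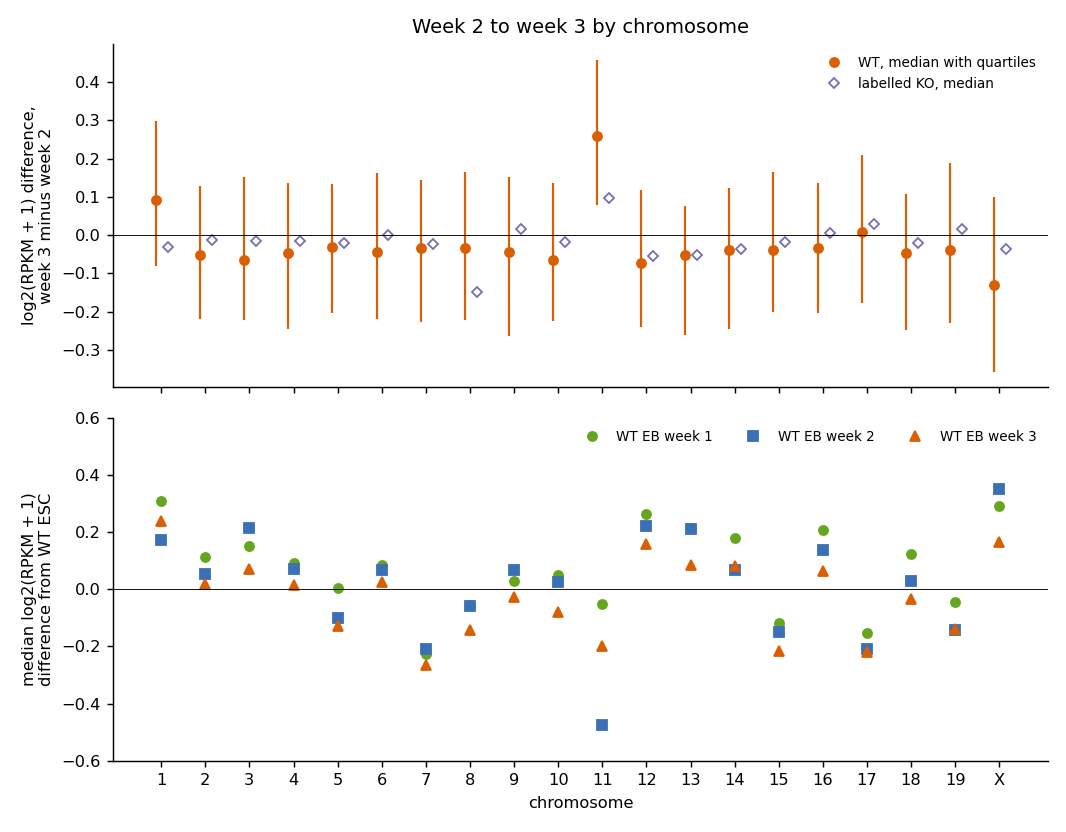
Top, log2(RPKM + 1) difference of week 3 minus week 2 by chromosome, with median (circle) and quartiles (line) over genes that reached an RPKM of 5 in each library for WT and the median for the libraries labelled KO (diamond). Bottom, median difference of each WT EB library from WT ESCs over the same genes. Chromosome 11 is at 0.26 in WT in the upper panel and at -0.48 for week 2 in the lower one.

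Over all genes, the weeks 2 and 3 of the libraries labelled KO are separate from the WT libraries and can be set beside them. Of the 12951 genes, 792 (6.12%) rose there and 877 (6.77%) fell. The genes higher in both genotypes numbered 511, which is 29.9% of those that rose in WT and 64.5% of those that rose in the libraries labelled KO, and 505 fell in both, 38.6% and 57.6%. In opposite directions, 100 genes rose in WT and fell in the libraries labelled KO (5.86% of the WT rises), and 38 did the reverse (2.91% of the WT falls).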

How the data were processed

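Poly(A) RNA of E14 ESCs and EBs was fragmented and sequenced, 1 library for each of 8 groups. Per the submitters' notes and methods, the authors used TopHat 1.1.4 with Bowtie 0.12.7 for alignment to mm9, SAMtools 0.1.18 for the alignment files and Cufflinks 1.1.0 for RPKM on RefSeq genes. The deposited table holds log2 values of RPKM + 1, which were turned back to RPKM here. Differences are on the log2(RPKM + 1) scale (pseudocount 1), which understates the change of low genes, over genes reaching an RPKM of 1 in either WT library. Depth was estimated from the smallest RPKM steps and GENCODE M1 lengths. With 1 library per group no test was run, and samples could not be left out. The 46 gene lists and the comparison itself were chosen with earlier results of these data known. Named were the 25 highest and lowest log2 differences among genes at an RPKM of 5, the 12 largest RPKM gains and losses, up to 6 genes per list with the largest change past 1.5-fold, the study's example genes and Uhrf1. Other genes, the subgroups of lists and the leaving out of chromosome 11 were chosen after their values were seen. Alternatives were another pseudocount, minimum, fold and scaling. Coordinates are GENCODE M1 on mm9. Promoter sequences come from RefSeq (GRCm38.p6) and were placed on mm9 by exact match. Analyses used Python 3.11.15, pandas 2.3.3, numpy 2.4.6 and scipy 1.17.1, and the scripts were tested on simulated data.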

Additional observations from a re-analysis of the deposited data

Results flagged for a closer look

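Between the WT libraries and the libraries labelled KO, the medians of 2 gene lists past 1.5-fold in WT had the opposite sign over the same week, and 11 coding genes, taken by the rule for named genes or from the 40 coding genes with the largest differences each way, passed 1.5-fold in opposite directions. With 1 library per group, none of these differences between genotypes was tested. Values are log2(RPKM + 1) differences of week 3 minus week 2, first in WT and then in the libraries labelled KO. The stomach and gut lining list had a median of 1.41 in WT and -0.41 in the libraries labelled KO, and the Hox list had 1.01 and -0.036. The Hox median of -0.036 lay close to the -0.011 of all genes compared in the libraries labelled KO. Among single genes, Tff1 was at 5.62 and -1.84, Spink4 at 4.02 and -0.91, Agr2 at 3.92 and -2.26, Gkn1 at 3.41 and -1.57, Gsta1 at 3.29 and -2.47, Lgals4 at 3.02 and -3.86 and the pepsinogen gene Pga5 at 2.46 and -1.02. The carbonic anhydrase Car2 was at 2.18 and -0.66 and the smooth muscle myosin Myh11 at 1.03 and -1.38. Of the further genes named in the report, small RNAs aside, Gkn2 was at 2.76 and -1.44, Fabp1 at 1.28 and -5.04, Olfm4 at 1.52 and -0.84, Hoxa10 at 1.17 and -1.25, Ahsg at 1.80 and -2.29, Itih4 at 1.61 and -1.96, H19 at 1.27 and -1.32 and Hoxd13 at 0.99 and -2.06. In the other direction, Dbx1 was at -0.73 and 0.62, Ifit3 at -2.40 and 0.83 and the adult globin Hbb-b1 at -0.84 and 1.03.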

How the results depend on the processing

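Of all 12951 genes, 1707 rose and 1307 fell under the settings of the report. A minimum RPKM of 5 left 889 rising and 938 falling genes, so that falls outnumbered rises, and a 2-fold threshold left 875 rising and 553 falling. The replication-dependent histones went from a median of 0.81 to -0.059 at a minimum RPKM of 5, which kept 1 of their 11 genes. Another scaling of the 2 libraries gave 1661 to 1750 rising and 1262 to 1347 falling genes and moved the median of all genes by at most 0.02. Counts ran to 2105 and 1562 with a pseudocount of 0.1. The direction of the called named genes, which were mostly chosen for large differences, could not change under these settings. Filters on level, transcript type or chromosome only choose genes and leave the difference of each as it was. A pseudocount of 0.1 cannot reverse a difference. The scalings divided week 3 by 0.989 to 1.014, too little to reverse a gene past 1.5-fold. Of 309 called named genes, 307 stayed past 1.5-fold under the median-of-ratios and upper-quartile scalings and 309 under equal RPKM totals. Cardiac transcription factors crossed 1.5-fold in the median, to -0.70 with a pseudocount of 0.1 and to -0.61 both at an RPKM of 5 and without chromosome 11. No paired analysis was possible because each group held 1 library, and for the same reason no replicate could be left out. Genes at a mean RPKM under 1 gave 256 rises and 46 falls of 478.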
